A study of Homo sapiens and Mus musculus with 54 samples.

Results

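The regions described are 8067 AhR peaks of HepG2 cells that share at least 1 bp with a C/EBPα peak and no base with any H3K27ac region of the untreated HepG2 list. They were chosen by those overlaps from a list of 56739 AhR peaks, of which they make up 14.2%. The overlaps are therefore a description and carry no test. The other AhR peaks fall into 3 classes, with 23334 that met C/EBPα and H3K27ac alike (both partners), 16764 that had H3K27ac only and 8574 that had neither. The whole set of 4 HepG2 lists held 323311 rows, with 62761 C/EBPα peaks, 106666 H3K27ac regions in the untreated list and 97145 in the list of the inhibitor experiment.

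The study asked how the liver AhR responds to vitamin B2, and profiled chromatin by ChIP-seq in 54 libraries, 30 of them from HepG2, a cell line grown from a human liver tumour. All HepG2 libraries were labelled day 12. AhR was precipitated in 2 B2-deficient and 2 control libraries, C/EBPα in 2 B2-deficient and 2 control libraries, and H3K27ac in 5 B2-deficient and 5 control libraries. The inhibitor experiment held 2 B2-deficient libraries with an AhR inhibitor, 2 B2-deficient libraries with DMSO and 2 control libraries with DMSO, all for H3K27ac, and 6 libraries were inputs. By their titles, 2 inputs of B2-deficient cells serve AhR as well as C/EBPα, while control cells have 2 inputs for each, and what this does to shared peaks was not tested. The lists are pooled over conditions and hold positions alone, so read depth is unknown and no value of a B2-deficient, control or inhibitor-treated library could be compared with another.

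AhR, the aryl hydrocarbon receptor, is a ligand-activated factor that enters the nucleus, pairs with ARNT and binds the xenobiotic response element, whose core is GCGTG. C/EBPα is a leucine zipper factor that keeps hepatocytes differentiated and drives genes of plasma proteins, glucose and lipid metabolism. H3K27ac, acetylation of histone H3 at lysine 27, marks active enhancers and promoters.

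Promoter sequences show what lies under such peaks. RefSeq promoter windows of 300 bases, from 250 before to 50 after a start site, were taken from GRCh38.p14, the assembly of hg38. Of the 8067 peaks, 516 covered at least 100 bp of a window. In 97 pairs of a peak and a window, at 90 genes, the overlap held GCGTG together with TTNCNNAA or GCAAT, which are 2 forms of the C/EBP recognition sequence, on either strand. Such letters are common, since 36.5% of all 34943 windows held GCGTG, 36.9% TTNCNNAA and 24.5% GCAAT. The share with both motifs was not computed for other windows, so the 97 pairs are a description. The 8 windows printed are those of genes in the functional lists used below with the highest merge number and then the longest overlap, and they show AhR and C/EBP motifs in 1 promoter. Each runs 5′ to 3′ along the gene, and capitals mark these motifs inside the overlap, so the complement CACGC of GCGTG is also in capitals.
ETFB: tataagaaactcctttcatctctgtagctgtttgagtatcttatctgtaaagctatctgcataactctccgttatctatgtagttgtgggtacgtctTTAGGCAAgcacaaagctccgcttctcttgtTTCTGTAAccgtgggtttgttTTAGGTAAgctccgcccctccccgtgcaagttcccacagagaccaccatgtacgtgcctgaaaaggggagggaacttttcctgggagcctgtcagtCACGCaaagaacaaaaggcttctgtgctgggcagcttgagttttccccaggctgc
SULT2A1: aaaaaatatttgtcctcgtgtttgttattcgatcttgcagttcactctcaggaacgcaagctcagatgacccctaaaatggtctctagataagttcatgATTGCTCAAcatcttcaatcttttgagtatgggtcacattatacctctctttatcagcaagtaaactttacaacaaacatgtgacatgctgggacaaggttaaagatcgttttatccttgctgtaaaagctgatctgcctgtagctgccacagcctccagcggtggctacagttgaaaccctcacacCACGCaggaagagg
PER3: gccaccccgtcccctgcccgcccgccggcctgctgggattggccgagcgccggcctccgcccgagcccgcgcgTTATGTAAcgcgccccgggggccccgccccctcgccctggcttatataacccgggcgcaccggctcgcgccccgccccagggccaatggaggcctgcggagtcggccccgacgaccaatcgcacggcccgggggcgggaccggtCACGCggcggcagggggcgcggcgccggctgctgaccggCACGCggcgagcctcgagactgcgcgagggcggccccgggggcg
SLC51B: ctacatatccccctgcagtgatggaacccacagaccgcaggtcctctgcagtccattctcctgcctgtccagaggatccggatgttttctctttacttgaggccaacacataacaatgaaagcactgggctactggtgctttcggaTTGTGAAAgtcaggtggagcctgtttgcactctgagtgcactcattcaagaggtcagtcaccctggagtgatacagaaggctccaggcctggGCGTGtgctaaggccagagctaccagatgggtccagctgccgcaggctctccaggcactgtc
OSGIN1: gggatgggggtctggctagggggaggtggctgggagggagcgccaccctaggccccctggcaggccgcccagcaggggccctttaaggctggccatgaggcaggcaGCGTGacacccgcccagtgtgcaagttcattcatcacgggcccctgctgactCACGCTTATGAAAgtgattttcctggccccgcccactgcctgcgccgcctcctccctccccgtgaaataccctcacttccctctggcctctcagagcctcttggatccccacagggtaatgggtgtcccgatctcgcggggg
RBP4: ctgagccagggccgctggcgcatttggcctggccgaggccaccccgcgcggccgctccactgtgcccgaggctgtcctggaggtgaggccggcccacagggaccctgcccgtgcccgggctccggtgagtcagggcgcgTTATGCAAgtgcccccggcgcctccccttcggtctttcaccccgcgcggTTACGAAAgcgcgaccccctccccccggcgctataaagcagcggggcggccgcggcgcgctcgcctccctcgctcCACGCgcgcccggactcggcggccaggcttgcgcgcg
NR1D2: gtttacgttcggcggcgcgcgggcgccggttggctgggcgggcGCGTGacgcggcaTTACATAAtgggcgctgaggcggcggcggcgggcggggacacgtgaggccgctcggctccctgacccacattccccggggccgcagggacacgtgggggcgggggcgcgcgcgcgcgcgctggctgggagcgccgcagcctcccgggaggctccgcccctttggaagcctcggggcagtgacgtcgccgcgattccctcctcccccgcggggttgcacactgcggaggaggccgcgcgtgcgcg
SCD: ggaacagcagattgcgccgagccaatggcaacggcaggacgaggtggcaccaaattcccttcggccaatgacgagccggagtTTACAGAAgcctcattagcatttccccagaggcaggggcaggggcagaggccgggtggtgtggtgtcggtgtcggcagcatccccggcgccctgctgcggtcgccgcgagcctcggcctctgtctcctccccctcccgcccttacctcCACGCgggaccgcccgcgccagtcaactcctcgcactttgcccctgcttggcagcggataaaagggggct

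ETFB (the beta subunit of the electron transfer flavoprotein, an FAD-bearing carrier of electrons from fatty acid oxidation) has its window at chr19:51354793-51355092 on the minus strand, and the AhR peak at chr19:51354797-51355099 covered 296 bases of it. SULT2A1 (a sulfotransferase of bile acids and hydroxysteroids) has its window at chr19:47886266-47886565 on the minus strand, and the AhR peak at chr19:47886261-47886540 covered 275 bases of it. PER3 (a period protein of the circadian clock) has its window at chr1:7784041-7784340 on the plus strand, and the AhR peak at chr1:7783980-7784307 covered 267 bases of it. SLC51B (the beta subunit of the basolateral bile acid exporter) has its window at chr15:65045137-65045436 on the plus strand, and the AhR peak at chr15:65045167-65045410 covered 244 bases of it. OSGIN1 (an oxidative stress-induced growth inhibitor) has its window at chr16:83952990-83953289 on the plus strand, and the AhR peak at chr16:83952971-83953224 covered 235 bases of it. RBP4 (the plasma carrier of retinol) has its window at chr10:93601186-93601485 on the minus strand, and the AhR peak at chr10:93601202-93601425 covered 224 bases of it. NR1D2 (the nuclear receptor REV-ERB beta) has its window at chr3:23945871-23946170 on the plus strand, and the AhR peak at chr3:23945796-23946017 covered 147 bases of it. SCD (stearoyl-CoA desaturase) has its window at chr10:100346983-100347282 on the plus strand, and the AhR peak at chr10:100347024-100347321 covered 259 bases of it. The distance from these 8 AhR peaks to the nearest H3K27ac region was smallest at OSGIN1 (2766 bp) and largest at PER3 (30843 bp). The AhR peak had a merge number of 2 at 7 of the windows and of 1 at SCD. The C/EBPα partner had a merge number of 3 at SULT2A1, PER3, SLC51B, OSGIN1 and RBP4, and of 2 at ETFB, NR1D2 and SCD. The merge number ends the name of each row and is read here as the number of peak calls joined into that row. A match to a motif is a description of the letters and not a binding site.

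How these peaks lie around genes has to be read against the H3K27ac list itself. Start sites came from the RefSeq promoter windows, which used here hold none for 4266 protein-coding genes, among them all of chromosome 8. AhR peaks were called near when the centre lay within 3 kb of a start site. They were called far when it lay beyond 3 kb of every start site and of both ends of every gene without one. By this rule 2925 of the C/EBPα-only peaks were near and 4413 far, while 729 were not placed, 336 of them on chromosome 8. The untreated H3K27ac list changed abruptly at 3 kb. It had 2001 regions with a centre 3000 to 3500 bp from a start site and 646 at 2500 to 3000 bp, a ratio of 3.10 (95% interval 2.83 to 3.39). At start sites of protein-coding genes that ratio was 6.47 (5.62 to 7.44), and in the inhibitor list it was 3.10 (2.83 to 3.40) over all start sites. The AhR list (ratio 0.945, 0.858 to 1.04) and the C/EBPα list (0.936, 0.854 to 1.03) had no such step.

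The C/EBPα-only peaks had the opposite step, with 97 peaks at 3000 to 3500 bp and 349 at 2500 to 3000 bp, a ratio of 0.278 (0.222 to 0.348). They made up 40.0% of the near AhR peaks and 9.66% of the far ones. Among AhR peaks with a C/EBPα peak, they made up 78.9% of those near and 17.2% of those far. The C/EBPα peaks themselves hardly changed over the same boundary, since 50.6% of near and 56.2% of far AhR peaks had one, whereas 19.2% of near and 79.9% of far AhR peaks had an H3K27ac region. Within 3 kb of a start site, a missing row in the H3K27ac list therefore does not show that the mark was absent, and the main results are given for near and far peaks. What made the step was not tested.

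**Figure D1:**
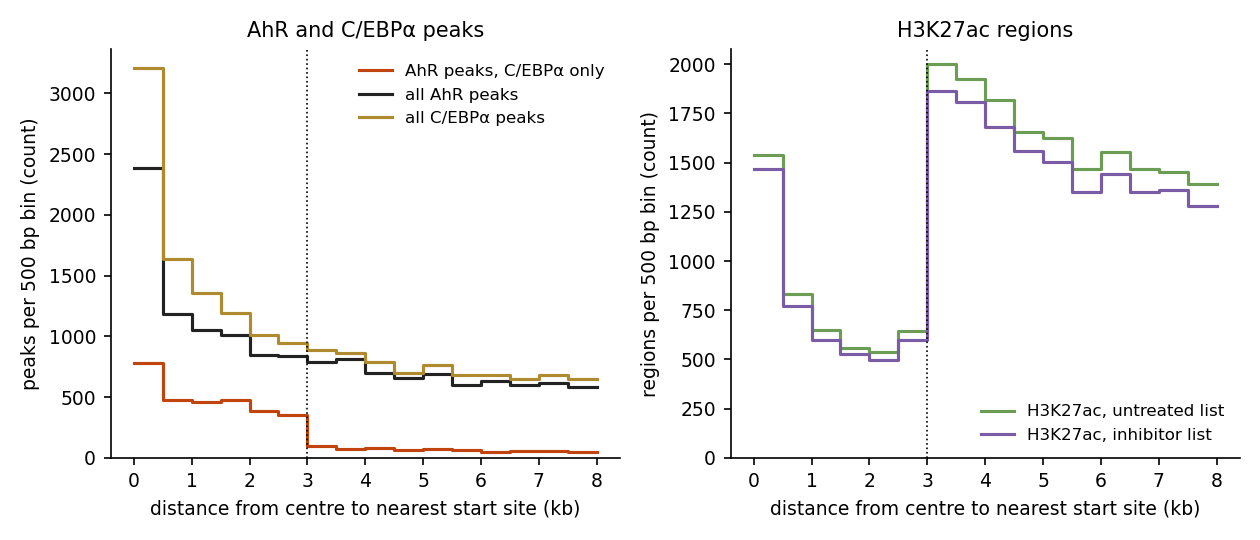
Peaks (left) and H3K27ac regions (right) per 500 bp bin by distance from the centre to the nearest RefSeq start site, with the dotted line at 3 kb. The C/EBPα-only AhR peaks number 349 in the last bin inside the line and 97 in the first bin beyond it, and the untreated H3K27ac regions 646 and 2001.

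Of the C/EBPα-only peaks that could be placed, 39.9% lay within 3 kb of a start site, against 3.54% of the AhR peaks with both partners and 38.6% of those with neither. The difference from AhR peaks with neither was 1.27 percentage points with a 95% interval of −0.48 to 3.02, obtained by leaving out each chromosome in turn, so no difference was shown at this distance. Closer to the start the classes parted. Within 1 kb lay 17.1% of the C/EBPα-only peaks and 21.8% of those with neither, a difference of −4.77 points (−6.33 to −3.21), and the C/EBPα-only share was the lower one on 22 of 23 chromosomes. Within 100 bp the shares were 4.28% and 7.12%, a difference of −2.84 points (−4.10 to −1.58). Near C/EBPα-only peaks were spread over the whole 3 kb, with 25.2% of them 1000 to 3000 bp upstream, 18.8% within 250 bp of the start site and 31.9% 1000 to 3000 bp downstream. With merged AhR and C/EBPα peaks only, the difference within 1 kb was −0.88 points (−4.04 to 2.27), which spans 0.

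Of all 8067, 58.8% lay inside a protein-coding gene, against 54.4% of AhR peaks with both partners. Among far peaks the difference was 1.55 points (−1.29 to 4.39), which spans 0. The median width was 231 bp, against 235 bp for AhR peaks with both partners and 232 bp for those with neither. By chromosome, the C/EBPα-only share of AhR peaks ran from 12.2% on Y and 12.5% on 20 to 16.0% on 11. Over far peaks it ran from 6.60% on chromosome 19 to 11.3% on chromosome 4.

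The merge number gives a second readout, one that the rule did not use, although it comes from the same AhR list. Of the C/EBPα-only peaks, 2669 had a merge number of 2 and 5398 a merge number of 1. Merged peaks, with a number of 2 or more, were 33.1% of the C/EBPα-only peaks, where 42.3% of all AhR peaks were merged. The sources used here do not give which libraries or conditions stand behind a merge, so a merged peak cannot be read as one found in both B2-deficient and control cells.

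Merged AhR peaks were commoner where C/EBPα lay than where neither partner did. The C/EBPα-only share of 33.1% exceeded the 13.3% of AhR peaks with neither by 19.8 points (18.04 to 21.5), with the same sign on 24 of 24 chromosomes. Against the 63.8% of AhR peaks with both partners the difference was −30.7 points (−32.7 to −28.7), with the C/EBPα-only share lower on 24 of 24 chromosomes. Against AhR peaks with H3K27ac only (31.6%) the difference was 1.51 points (−0.30 to 3.31), which spans 0. The sign of this difference changed with position. Near start sites the C/EBPα-only peaks were merged in 44.2% of cases and the H3K27ac-only peaks in 25.9%, a difference of 18.4 points (13.8 to 22.9). Far from start sites the shares were 24.6% and 31.8%, a difference of −7.18 points (−8.88 to −5.48).

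Within the C/EBPα-only peaks, the merged share was 19.6 points higher near than far (17.4 to 21.8), on 23 of 23 chromosomes. Near peaks with C/EBPα only exceeded near peaks with neither (18.3%) by 26.0 points (23.5 to 28.4). Far peaks with C/EBPα only exceeded far peaks with neither (9.71%) by 14.9 points (12.9 to 17.0). Their difference from peaks with both partners was −39.3 points (−41.2 to −37.3) far from start sites (63.9% for both partners) and −14.6 points (−18.7 to −10.4) near them (58.8%). These intervals do not overlap, so the distance to peaks with both partners was smaller inside the 3 kb boundary.

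**Figure D2:**
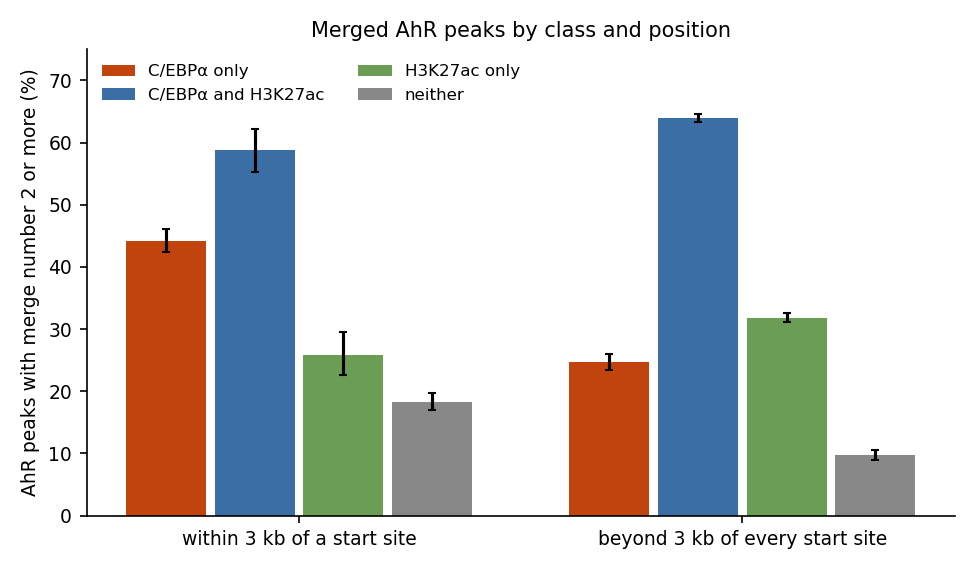
Share of AhR peaks with a merge number of 2 or more in each class, near (left) and far (right) from start sites, with Wilson 95% intervals for counting error. C/EBPα-only peaks stand at 44.2% near and 24.6% far, and peaks with both partners at 58.8% near and 63.9% far.

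The C/EBPα peaks that these AhR peaks share were themselves mostly merged. There were 8069 of them, and 8054 AhR peaks met 1 C/EBPα peak while 13 met 2. A merge number of 3 was held by 54.6% of these partners, 2 by 21.0% and 1 by 24.3%. The merged share of 75.7% was 2.62 points below that of C/EBPα peaks on AhR peaks with H3K27ac (78.3%, interval −3.64 to −1.60). It was 38.4 points above that of C/EBPα peaks with neither AhR nor H3K27ac (37.3%, interval 37.4 to 39.3), on 24 of 24 chromosomes. C/EBPα peaks with an H3K27ac region and no AhR peak were merged in 55.2% of cases. C/EBPα peaks under an AhR peak were thus the more often merged ones, with or without a listed H3K27ac region.

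AhR merging was commonest over C/EBPα peaks with a merge number of 3. C/EBPα-only AhR peaks were merged in 40.1% of cases where the C/EBPα peak had a merge number of 3, in 25.3% where it had 2 and in 24.1% where it had 1. For AhR peaks with both partners these shares were 69.7%, 54.8% and 54.0%. In each class the intervals for merge numbers 1 and 2 overlap.

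The AhR and C/EBPα centres lay close together. The median distance between the centres was 20 bp over the C/EBPα-only peaks, with medians of 16.5 to 24.8 bp over the autosomes, and 22 bp for AhR peaks with both partners. Since overlap is the rule, short distances are a description. Far from start sites, 89.3% of the C/EBPα-only peaks had a C/EBPα centre within 50 bp, against 80.2% of those with both partners, a difference of 9.09 points (8.09 to 10.1) on 23 of 23 chromosomes. Near start sites the shares were 76.3% and 78.4%, and the difference of −2.12 points (−6.25 to 2.02) spans 0. The median overlap was 210 bp for C/EBPα-only peaks and 212 bp for those with both partners.

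Few peaks sat at the edge of the rule. An overlap of 20 bp or less with the C/EBPα peak was found for 38 of the 8067, and 33 AhR peaks with neither partner missed a C/EBPα peak by 1 to 20 bp. On the other side of the rule, 33 of the 8067 missed an H3K27ac region by 1 to 20 bp, and 32 AhR peaks with both partners shared 20 bp or less with one.

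The gap to the nearest H3K27ac region was slightly smaller than for AhR peaks with neither partner. Its median was 6369 bp (quartiles 2655 and 16314 bp), against 6926 bp (2864 and 17864 bp) for AhR peaks with neither. A region lay within 1 kb of 11.9% of the C/EBPα-only peaks and 10.1% of those with neither, a difference of 1.84 points (0.95 to 2.73). The far peaks gave 15.4% and 13.5%, a difference of 1.90 points (0.44 to 3.36). H3K27ac regions within 1 kb on both sides were found for 56 C/EBPα-only peaks (0.694%), against 80 (0.933%) of those with neither. Most regions of the inhibitor list are identical to regions of the untreated list, which the rule keeps off both classes, so low shares follow from the rule. The inhibitor list had a region on 142 C/EBPα-only peaks (1.76%), against 226 peaks (2.64%) with neither, a difference of −0.88 points (−1.25 to −0.50). It had one on 93.8% of AhR peaks with both partners. With merged AhR and C/EBPα peaks only, both differences span 0, at 0.62 points (−1.46 to 2.70) within 1 kb and −0.84 points (−2.10 to 0.42) for the inhibitor list. Of the 142, 134 were far peaks and 3 were near.

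**Figure D3:**
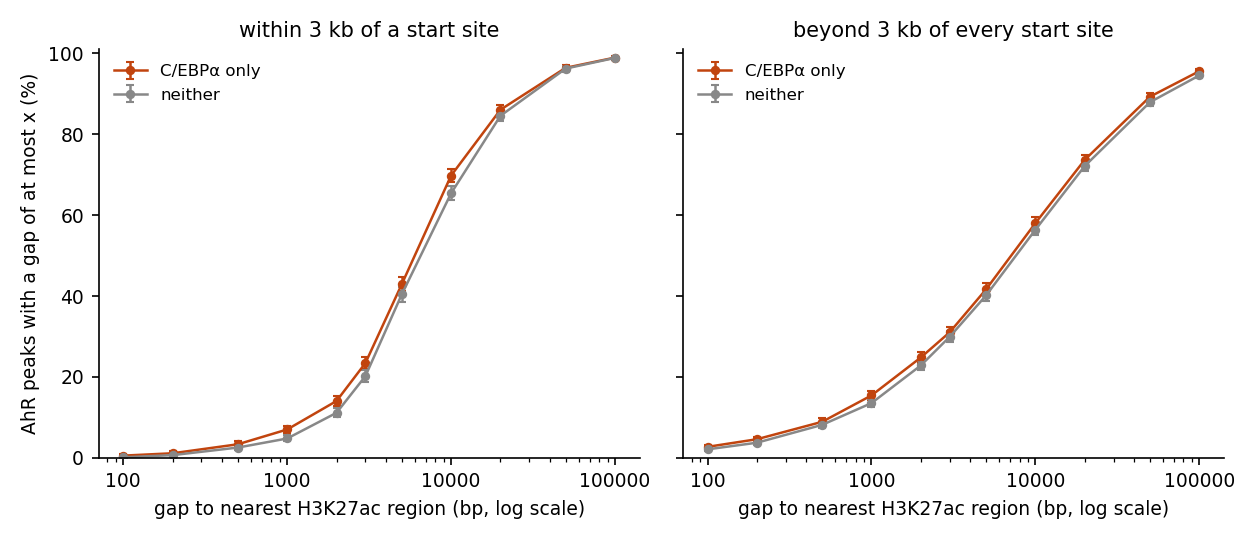
Cumulative share of AhR peaks by the gap to the nearest H3K27ac region of the untreated list, for C/EBPα-only peaks and peaks with neither, near (left) and far (right), with Wilson 95% intervals. The curves run close together, with 15.4% and 13.5% of far peaks within 1 kb.

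The nearest other AhR peak was also C/EBPα only for 23.6% of the C/EBPα-only peaks and had both partners for 32.8% of them. In the whole list, 14.2% of AhR peaks were C/EBPα only and 23334 of 56739 had both partners. The first share was thus above that of its class in the list, and the second below. A C/EBPα-only neighbour was also commoner than in the other classes, at 23.6% against 11.2% of AhR peaks with both partners and 19.6% of those with neither. Near start sites this share was 32.8%, against 26.3% for peaks with neither, a difference of 6.54 points (4.46 to 8.62). Far from them it was 17.4%, with 39.3% of neighbours having both partners, and the difference from peaks with neither was 2.42 points (0.69 to 4.15). The median gap to the next AhR peak was 6162 bp, against 4618 bp for AhR peaks with both partners and 7488 bp for those with neither.

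The promoters on which C/EBPα-only AhR peaks lay were rich in C/EBP motifs. The 516 peaks covered 585 windows, of which 79.2% belonged to protein-coding genes. TTNCNNAA, the full C/EBP motif, was in 56.1% of these windows, against 22.6% of 971 windows under AhR peaks with neither, 49.2% of 1658 windows with a C/EBPα peak and no AhR peak, and 36.9% of all 34943 windows. The difference from the windows with neither was 33.5 points (28.7 to 38.3) on 22 of 22 chromosomes, and that from C/EBPα without AhR was 6.85 points (1.28 to 12.4). The second difference takes no account of GC content. When windows were split into classes of low, middle and high GC content, the C/EBPα-only shares were 75.9%, 52.4% and 33.1%. Windows with C/EBPα and no AhR had 78.05%, 51.6% and 31.5%. The C/EBPα-only share was thus lower in the low class and slightly higher in the middle and high classes. A difference of 6.85 points was not seen within any class. Before this split, the 269 windows under AhR peaks with H3K27ac were close to the C/EBPα-only windows, at 57.2%. This set takes peaks with or without C/EBPα, 16.0% of its windows belonged to protein-coding genes, and its mean GC content was 51.1%. The shorter motif GCAAT was in 36.8% of windows under C/EBPα-only peaks, 16.2% of those with neither, 36.2% of those with C/EBPα and no AhR and 24.5% of all windows. TGATGNAA, the composite bound by C/EBP and ATF dimers, was in 8.38% against 1.44% of windows with neither, 6.03% of those with C/EBPα and no AhR and 3.62% of all. The presence of C/EBP letters under C/EBPα peaks is near to what the rule chose, and is given as a description of the promoters.

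Before any split by GC content, the AhR core was scarcer than under AhR peaks with neither partner or under C/EBPα peaks with no AhR. GCGTG was in 39.1% of windows under C/EBPα-only peaks, against 59.5% of those under AhR peaks with neither, a difference of −20.4 points (−26.8 to −14.0). Windows with C/EBPα and no AhR had it in 48.5% of cases, a difference of −9.41 points (−14.5 to −4.36), and windows under AhR peaks with H3K27ac in 24.5%. With merged AhR and C/EBPα peaks only, the difference from windows with neither was −8.91 points (−23.07 to 5.25), which spans 0. All windows had it in 36.5% of cases, so the promoters with C/EBPα-only peaks were close to the background. The longer form TNGCGTG, which contains the core, was in 8.21% against 15.2% of windows with neither and 5.50% of all. Base composition moved with this result. Mean GC content was 56.1% ± 11.6 (SD, 585 windows) under C/EBPα-only peaks, 64.8% ± 10.2 (SD, 971 windows) under peaks with neither and 57.5% ± 13.2 (SD) over all windows. When windows of like GC content were compared in 3 classes, GCGTG was in 15.1% against 20.6% in the lowest class, 44.0% against 56.3% in the middle one and 66.2% against 69.5% in the highest, always with the C/EBPα-only windows lower. The difference was −5.47 points in the lowest and −3.31 points in the highest class, both with intervals that span 0. Windows with C/EBPα and no AhR had GCGTG in 21.6%, 50.4% and 59.45% from the lowest class to the highest. Against these, the C/EBPα-only windows were lower in the lowest and middle class and higher in the highest. For TTNCNNAA, the C/EBPα-only windows were compared with windows with neither. The shares were 75.9% against 61.7%, 52.4% against 28.9% and 33.1% against 10.5% in the same order of classes. The C/EBPα-only windows were thus higher than those with neither in each class.

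Other motifs were compared with both sets of promoters. The AP-1 motif TGANTCA was in 14.02% of windows under C/EBPα-only AhR peaks and 3.86% of those with a C/EBPα peak and no AhR peak, a difference of 10.2 points (5.85 to 14.5), where 7.72% of all windows had it. Windows under AhR peaks with neither had it in 10.1% of cases, and that difference of 3.92 points (−0.57 to 8.42) spans 0. Windows under AhR peaks with H3K27ac, which differ in gene type and GC content, had it in 28.6%. AP-1 was thus not particular to C/EBPα-only peaks. Against C/EBPα without AhR, the forkhead motif TGTTTAC was in 7.86% and 2.71%, a difference of 5.15 points (1.961 to 8.34), where all windows had 3.42%. The CCAAT box was in 35.6% and 43.5% (all windows 34.6%), the ETS motif CCGGAA in 18.8% and 29.8% (all 17.2%), and the E-box CACGTG in 8.72% and 8.74% (all 7.23%). TGACG, the core of the cyclic AMP response element, was in 20.5% and 38.7% (all 24.5%), and the TATA box TATAAA in 9.40% and 6.88% (all 11.6%). The GC box GGGCGG was in 40.5% and 62.0%, a difference of −21.5 points (−26.8 to −16.2), where all windows had 44.9%. GC content was also lower, at 56.1% against 60.4%. Against windows with neither, the differences were 3.95 points for the forkhead motif (1.02 to 6.88), −26.5 points for the GC box (−31.2 to −21.8), −8.49 points for the ETS motif (−14.8 to −2.14) and −6.11 points for the E-box (−10.5 to −1.68). From the lowest GC class to the highest, AP-1 was in 20.3%, 12.9% and 6.76% of windows under C/EBPα-only peaks, in 29.0%, 12.7% and 4.57% of those with neither, and in 8.01%, 4.03% and 1.56% of those with C/EBPα and no AhR.

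**Figure D4:**
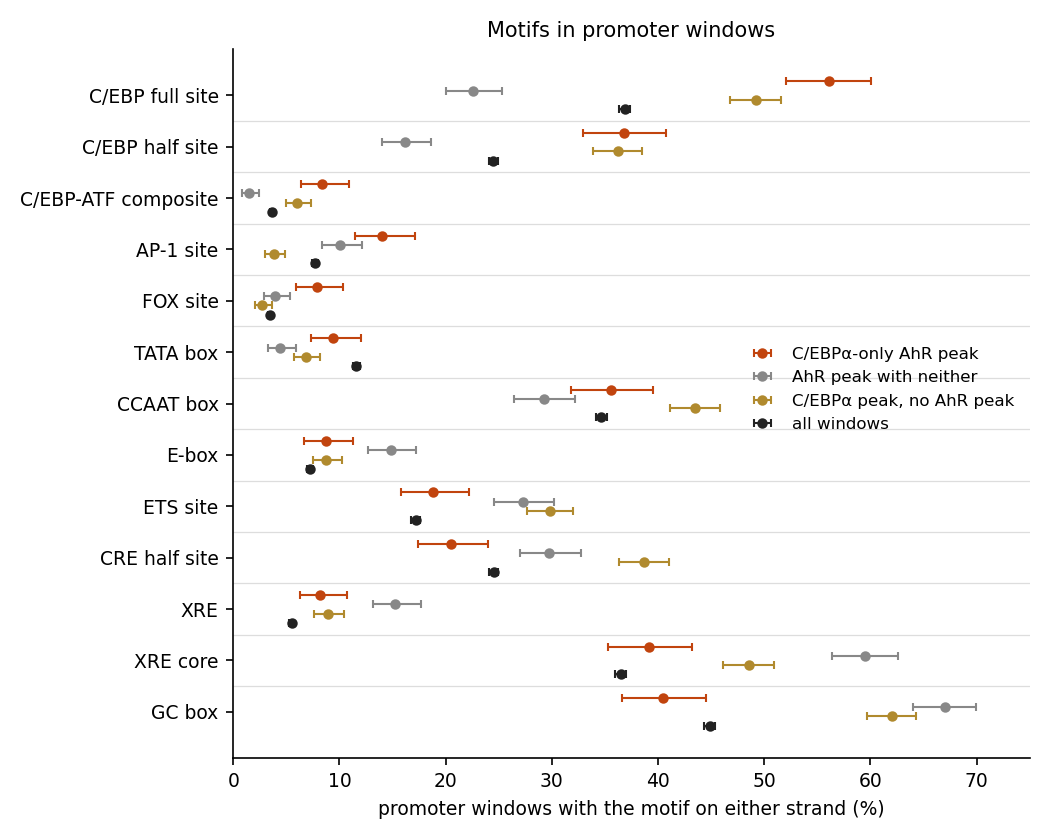
Share of 300-base promoter windows with each motif on either strand, under C/EBPα-only AhR peaks, under AhR peaks with neither partner, under C/EBPα peaks with no AhR peak and over all windows, with Wilson 95% intervals (XRE: xenobiotic response element). C/EBP motifs are commonest and GC boxes scarcest under C/EBPα-only AhR peaks among the first 3 sets, apart from the shorter C/EBP motif (the second row), where C/EBPα without AhR is about equal. The shares are not split by GC content.

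Each peak was assigned to the nearest protein-coding gene within 50 kb. A C/EBPα-only peak was assigned to 4875 of 19974 genes, or 24.4%, and 943 peaks had no gene in reach. Of these genes, 3436 had 1 such peak, 955 had 2, 293 had 3 and 191 had 4 or more, and at 949 genes every AhR peak was of this kind. Gene length moved with this count, and the median was 50.6 kb for genes with a C/EBPα-only peak against 24.2 kb for all protein-coding genes. The genes with the most were DLC1, named for its deletion in liver cancer, and NFIA, a nuclear factor I family member, with 10 each, of 36 and 48 AhR peaks. They were followed by the thyroid hormone receptor THRB and the zinc finger repressor ZBTB20 with 9 each, and by BCAR3, CCNL1, FOXP1, GMDS, SOCS6 and TBC1D9 with 8 each. BCAR3 had all 8 of its peaks near a start site. SOCS6, a suppressor of cytokine signalling, had 5 of its 8 close together past one end of the gene, from chr18:70332810 to chr18:70336194.

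Lists were therefore also compared by the C/EBPα-only share of their AhR peaks, which was 14.9% over all protein-coding genes. The lists of plasma protein genes stood highest over near and far peaks together. Fewer of their placed AhR peaks were far, at 61.8% for apolipoproteins, 69.7% for acute phase and 61.9% for coagulation and complement genes. Over all genes 84.6% were far, and the split by position is given below. Apolipoproteins, the protein parts of lipoproteins, had 19 C/EBPα-only peaks of 48 AhR peaks (39.6%, Wilson 95% interval 27.02 to 53.7) at 11 of 14 genes. Acute phase genes had 31 of 99 (31.3%, 23.02 to 41.0) at 15 of 22 genes. Coagulation and complement genes had 31 of 102 (30.4%, 22.3 to 39.9) at 19 of 31 genes. APOC3, an inhibitor of lipoprotein lipase, had 5 of its 6 AhR peaks in the class, all 5 of them merged, between chr11:116826879 and chr11:116834460. Coagulation factor XI (F11) and vitronectin (VTN) had 3 of 3 each, and SERPINA1, the gene of alpha-1-antitrypsin, had 4 of 18, all near a start site.

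Lists of liver enzymes and transporters followed. Phase II conjugation genes had 31 C/EBPα-only peaks of 106 (29.2%, 21.4 to 38.5) and bile acid genes 25 of 86 (29.1%, 20.5 to 39.4), at 17 of 20 genes. SLC51B had 3 of 3, all merged, at chr15:65044244-65044479, chr15:65044738-65044991 and chr15:65045167-65045410, the last of which is the promoter printed above. UGT2B7, a glucuronosyltransferase, had 7 of 17, and NR1H4, the bile acid receptor FXR, had 4 of 12. Mitochondrial flavoenzymes, which need cofactors made from vitamin B2, had 17 of 66 (25.8%, 16.8 to 37.4) at 12 of 29 genes, with 4 of 4 AhR peaks at ACADL, a long-chain acyl-CoA dehydrogenase, and 2 of 6 at ETFB. Riboflavin transport and flavin cofactor genes had 3 of 27 (11.1%, 3.85 to 28.1), at 3 of 9 genes. Fatty acid oxidation genes had 28 of 141 (19.9%, 14.1 to 27.2), with 6 of 12 at ACSL1, which activates long-chain fatty acids. Sterol genes had 18 of 78 (23.1%, 15.1 to 33.6), with 4 of 9 at INSIG2, which holds back sterol regulatory element-binding proteins. Lipogenesis genes had 27 of 134 (20.1%, 14.2 to 27.7), with 3 of 12 at SCD, and gluconeogenesis genes 21 of 112 (18.8%, 12.6 to 26.97), with 5 of 15 at GPT2, an alanine aminotransferase.

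Among regulators, the C/EBP family had 5 of 21 (23.8%, 10.6 to 45.1), of which CEBPB held 3 near its start and CEBPA held 1 at chr19:33300070-33300346, inside the gene, 2326 bp from the start site and 356 bp from an H3K27ac region. AhR targets and feedback genes had 12 of 83 (14.5%, 8.47 to 23.6), at 8 of 20 genes. CYP1A1, a cytochrome P450 gene that AhR ligands induce, had 1 of its 5 AhR peaks in the class, at chr15:74726402-74726632, merged, 989 bp from the start site and 4308 bp from an H3K27ac region. ARNT, the partner of AhR, had 2 of 3. AHR (1 AhR peak), AHRR (4), CYP1B1 (2) and TIPARP (8) had none. NRF2 response genes had 20 of 113 (17.7%, 11.8 to 25.8), with 4 of 6 at NFE2L2 itself. Clock genes had 16 of 115 (13.9%, 8.75 to 21.4), with 3 of 6 at NR1D1, all merged and near a start site. Hypoxia genes, whose factor also pairs with ARNT, had 12 of 128 (9.38%, 5.44 to 15.7), integrated stress response genes 19 of 98 (19.4%), p53 response genes 12 of 51 (23.5%), iron genes 16 of 121 (13.2%), urea cycle genes 7 of 51 (13.7%) and hepatocyte transcription factors 33 of 198 (16.7%).

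Among marker lists of cell types, that of hepatocytes had the largest share of genes with such a peak. Against 24.4% of all genes, hepatocyte markers had one at 16 of 19 genes (84.2%, as many as had a peak with both partners), cholangiocyte markers at 6 of 12, endothelial markers at 5 of 13, macrophage and leukocyte markers at 3 of 14 and stellate and fibroblast markers at 1 of 15. Per AhR peak the shares were 31 of 177 (17.5%, 12.6 to 23.8) for hepatocyte, 4 of 25 (16.0%) for macrophage and leukocyte, 8 of 59 (13.6%) for cholangiocyte, 5 of 47 (10.6%) for endothelial and 1 of 23 (4.35%, 0.772 to 21.0) for stellate and fibroblast markers, and all 5 intervals hold the 14.9% of all genes. Of the 26 lists, 24 exceeded all genes in the share of genes with a C/EBPα-only peak, and 17 in the share of AhR peaks, 7 of them with an interval wholly above it.

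Split by position, fewer lists stood apart. Over near AhR peaks of all genes the C/EBPα-only share was 41.2%, and 5 lists had a Wilson interval wholly above it. These were sterol genes with 10 of 11 (90.9%, 62.3 to 98.4), phase II genes with 19 of 27 (70.4%, 51.5 to 84.2), bile acid genes with 14 of 20 (70.0%, 48.1 to 85.5), acute phase genes with 16 of 23 (69.6%, 49.1 to 84.4) and coagulation and complement genes with 24 of 37 (64.9%, 48.8 to 78.2). Mitochondrial flavoenzymes had 9 of 16 near AhR peaks in the class (56.2%, 33.2 to 76.9), with all genes inside the interval. Over far AhR peaks of all genes the share was 9.66%, and 0 of 26 lists had an interval wholly above it. Acute phase genes had 3 of 53 (5.66%, 1.94 to 15.4) and coagulation and complement genes 4 of 60 (6.67%, 2.62 to 15.9), with all genes inside each interval. Apolipoprotein genes had 8 of 13 near AhR peaks in the class (61.5%, 35.5 to 82.3) and 2 of 21 far ones (9.52%, 2.65 to 28.9), and their other 9 C/EBPα-only peaks were not placed, since APOC3, for one, has no start site in the windows used here. Hepatocyte markers with 5 of 129 (3.88%, 1.67 to 8.75) and iron genes with 3 of 91 (3.30%, 1.13 to 9.25) lay below all genes among far peaks. Of 177 AhR peaks of hepatocyte markers, 28 were near and 129 far, but of their 31 C/EBPα-only peaks 16 were near and 5 far. Peaks that were not placed were thus more often C/EBPα only, which limits this far share. The same held for acute phase genes, with 16 near and 3 far of 31 C/EBPα-only peaks. The part of the 3 kb boundary of the H3K27ac list in these shares was not tested. These intervals cover counting error, and the lists are short and share genes.

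**Figure D5:**
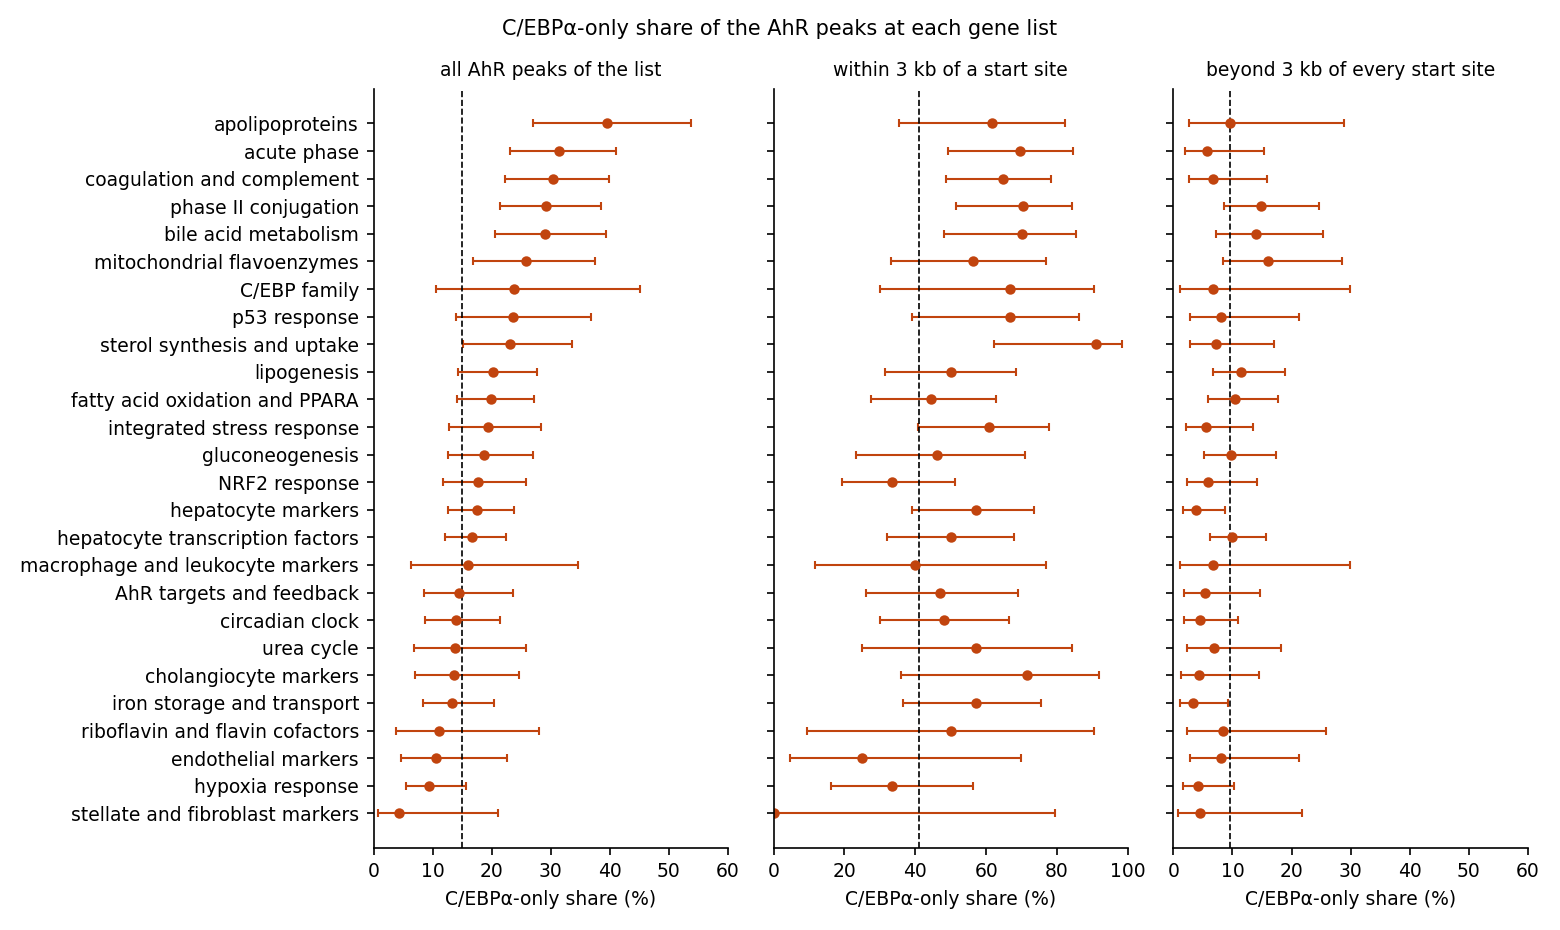
C/EBPα-only share of the AhR peaks of each gene list, over all its AhR peaks (left), those near a start site (middle) and those far (right), with Wilson 95% intervals; dashed lines give all protein-coding genes (14.9%, 41.2% and 9.66%). Most lists lie right of the line for near peaks, and 5 have an interval wholly right of it. These are the sterol, phase II conjugation, bile acid, acute phase, and coagulation and complement lists. No interval lies wholly right of the line for far peaks.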

How the data were processed

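ChIP-seq of AhR, C/EBPα and H3K27ac in HepG2 was analysed from peak lists. The authors deposited positions (name, chromosome, start, end), and Bowtie2 and HOMER with the builds hg38 and mm10 are named per the submitters' processing notes, without versions. The sources used here do not give caller settings or the libraries merged. Tests of B2-deficient against control cells, and of inhibitor against vehicle, had been planned for lists with a value per library and could not be made. The mouse lists were not used here.

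Overlap meant 1 bp shared. Genes, start sites and sequences came from RefSeq (GRCh38.p14): 19974 protein-coding genes, and 35116 promoter rows in 34943 distinct windows. All 457 list symbols matched. Shares carry Wilson 95% intervals, which cover counting error only; neighbouring peaks are not independent. Differences of shares carry 95% intervals from leaving out each chromosome in turn, with no p. A difference was counted as shown where this interval left out 0. The members and gene lists were chosen with earlier results of these data known. Named were AHR, AHRR, CYP1A1, CYP1B1, TIPARP and CEBPA, the 10 genes with the most members and up to 4 per list; other choices of what to name came after values were seen. Overlap calls, gaps and intervals were tested on simulated data with planted values. Tools were SciPy 1.17.1, pandas 2.3.3, NumPy 2.4.6, Matplotlib 3.10.9 and Python 3.11.15.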

Additional observations from a re-analysis of the deposited data

How the results depend on the processing

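Tried instead were 50% of the shorter peak as the shared length, centres within 500 bp, merged AhR and C/EBPα peaks only, the union of both H3K27ac lists, peaks beyond 3 kb of gene ends, other gene windows, motifs inside the peak only and GC classes. Peaks beyond 3 kb of start sites were added after the data were seen. Of the alternative values of the main results, 83 were counted as unchanged, 9 as moved, 7 as weaker and 1 as reversed. A difference was unchanged if its sign and the place of its interval against 0 stayed. A share or median was unchanged inside the main interval, and a count if of like size. Of the values of other results, mostly gene-list counts and motifs, 179 were unchanged, 80 moved, 22 weaker, 5 reversed and 2 stronger. The exceptions among the main results and the reversals among the others follow, and their cause was not tested. With merged peaks only, C/EBPα-only peaks were 9.16% of AhR peaks at 1724 genes. There the differences from peaks with neither were −0.88 points within 1 kb of a start site, 0.62 points for an H3K27ac region within 1 kb, −0.84 points for the inhibitor list and −8.91 points for GCGTG, with intervals that span 0. Against windows with neither, the ETS and E-box differences turned to 0.13 and 0.72 points. Beyond 3 kb of gene ends the share was 11.02% at 3122 genes, the median centre distance was 18 bp and the difference within 1 kb of a start site turned to 0.64 points. Beyond 3 kb of start sites the values were 9.66%, 2707 genes and 17.5 bp, and the inside-gene difference was 1.55 points. Peaks within 1 kb of a gene end gave 1048 genes. GC classes gave −5.47 and −3.31 points for GCGTG in the lowest and highest class and, also against windows with neither, 3.22 points for the GC box and −0.34 points for the forkhead motif in the highest and 1.03 points for ETS in the lowest. No paired analysis was possible because the lists give no value for a library, so leaving out replicates was not run. Read depth is unknown, and an unlisted region is not shown to lack H3K27ac.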

Other observations

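Some C/EBPα-only AhR peaks lay beside microRNA genes. Of 1560 hairpin genes in the RefSeq table, 176 had such a peak within 5 kb, and 13 overlapped one. For scale, 2262 of 19974 protein-coding genes (11.3%) had such a peak near a start site. That share is about equal to the share of hairpins, though the distance is a different one. Whether hairpins had more such peaks than other genes was not tested, so these counts are a description. The following were chosen after their values were seen. At the let-7 cluster on chromosome 9, a merged peak at chr9:94176609-94176828 lay 176 bp from the hairpin of MIRLET7F1 and 573 bp from that of MIRLET7A1, and a second peak at chr9:94178906-94179168, with a merge number of 1, overlapped the hairpin of MIRLET7D. The mature 5p arms of these 3 genes share 1 seed, bases 2 to 8, shown in capitals in the RefSeq sequences.
hsa-let-7a-5p: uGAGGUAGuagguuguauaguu
hsa-let-7f-5p: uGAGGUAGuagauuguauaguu
hsa-let-7d-5p: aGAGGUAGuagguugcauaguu

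MIR148A, an abundant microRNA of liver, had a merged peak 2691 bp away at chr7:25952677-25952907. The hairpins of MIR194-2 and MIR192, which lie side by side on chromosome 11 and are abundant in liver, had 1 peak 2003 bp and 2196 bp away at chr11:64893442-64893662. MIR21 had a peak 1368 bp and MIR30A a peak 1095 bp away, each with a merge number of 1.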
